A study of Mus musculus with 6 samples.

Results

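The MAP kinase phosphatases are the dual-specificity phosphatases of the DUSP family that remove phosphate from both the threonine and the tyrosine of an active MAP kinase. The 10 catalytically active members were taken by symbol, namely Dusp1, Dusp2, Dusp4, Dusp5, Dusp6, Dusp7, Dusp8, Dusp9, Dusp10 and Dusp16, out of 35027 genes in the expression table, and each of the 10 had a row. They were measured by RNA-seq in Kate-positive tumor cells sorted from thyroid tumors of 2 mouse genotypes. The YAP group held 3 libraries from mice in which doxycycline induced YAPS127A, a form of the transcriptional coactivator YAP that escapes retention in the cytoplasm, in thyroid cells. The BrafYAP group held 3 libraries, numbered 1, 2 and 6, from mice that carried the same inducible YAPS127A together with the oncogenic kinase allele BrafV600E. Both groups therefore carried activated YAP, and the comparison is of tumors with and without BrafV600E on top of it. The study classed primary tumors of YAP mice as poorly differentiated and most of those of BrafYAP mice as anaplastic. The histology of the sequenced tumors is not given in the sources used here, and tumor type and genotype cannot be told apart. According to the study's methods, a Cre driven by the thyroid peroxidase promoter switched on the doxycycline-dependent activator, the Kate reporter and, where present, BrafV600E at its own locus. Per the labels, doxycycline feeding began at 4 weeks of age and about 20000 cells were sorted per library. By the labels, 3 tumors were pooled for each YAP library while a single tumor made each BrafYAP library. The study's methods instead describe a single tumor from each mouse for every replicate. Which holds for the YAP libraries was not settled, and if these were pooled, pooling and genotype cannot be told apart.

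The family is usually divided by location and substrate. Dusp1, Dusp2, Dusp4 and Dusp5 encode inducible phosphatases of the nucleus, Dusp6, Dusp7 and Dusp9 encode cytoplasmic phosphatases that prefer ERK, and Dusp8, Dusp10 and Dusp16 encode phosphatases that prefer the stress-activated kinases JNK and p38. BRAF is the kinase above MEK and ERK, and several of these phosphatase genes are themselves transcribed when ERK is active, which makes them a negative feedback on the pathway that induced them. In thyroid and other tumors driven by BRAF, DUSP6 and DUSP4 are commonly read as transcripts of ERK output.

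The proximal promoters of 3 members whose levels did not overlap between the genotypes are printed here because they differ in the elements they hold. They are RefSeq promoter windows of build GRCm38.p6, of up to 250 bases, read from 5′ to 3′ on the strand of the gene. Bases on the gene side were removed until no annotated exon of the gene was left in the window. The windows of Dusp1 and Dusp8 lie inside the wider annotated spans given for these genes below. Capitals mark the cyclic AMP response element TGACGTCA and its core TGACG on either strand, where the core lies inside every full element. Dusp1 is shown from chr17:26508520-26508722 (minus strand), Dusp6 from chr10:99262981-99263230 (plus strand) and Dusp8 from chr7:142095285-142095534 (minus strand).
Dusp1: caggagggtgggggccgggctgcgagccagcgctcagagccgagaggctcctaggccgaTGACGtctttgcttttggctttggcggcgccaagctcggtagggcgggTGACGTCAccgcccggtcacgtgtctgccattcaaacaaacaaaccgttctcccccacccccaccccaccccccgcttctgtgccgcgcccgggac
Dusp6: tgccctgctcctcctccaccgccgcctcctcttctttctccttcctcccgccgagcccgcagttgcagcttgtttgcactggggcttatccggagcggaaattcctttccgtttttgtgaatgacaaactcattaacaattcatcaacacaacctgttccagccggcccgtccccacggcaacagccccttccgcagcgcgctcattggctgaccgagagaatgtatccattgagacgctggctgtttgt
Dusp8: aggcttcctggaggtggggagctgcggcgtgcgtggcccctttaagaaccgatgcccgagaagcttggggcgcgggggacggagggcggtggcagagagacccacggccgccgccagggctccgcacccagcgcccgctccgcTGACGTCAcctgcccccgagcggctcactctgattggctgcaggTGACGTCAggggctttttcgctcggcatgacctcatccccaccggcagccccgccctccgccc
The Dusp8 window held 2 full elements and the Dusp1 window held 1, whereas 1.55% of all 32851 promoter windows held a full element. The core alone stood in 17.77% of all windows, and among the members it was found in the windows of Dusp1, Dusp5, Dusp8 and Dusp16. The Dusp6 window held none of the letters searched. Neither the AP-1 letters TGANTCA (6.75% of all windows), the ETS letters CCGGAAG (6.91%) nor the TEAD letters GGAATG (12.64%), read on both strands, were found in the windows of 8 members, and the windows of Dusp4 and Dusp9 were not analysed here. A match here describes letters and not a bound site.

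Libraries held an estimated 26.157 to 36.916 M reads (M, mega). BrafYAP replicate 6 stood apart, with Pearson r across genes of 0.733 to 0.879 with the other 5 libraries against 0.979 between BrafYAP replicates 1 and 2, and of the 10 members it was the highest library for 3 and the lowest for 4. Among thyroid markers, transcripts of the lineage factor Pax8 were present in every library, at 75.9 to 219.5 TPM by exonic length, while those of thyroglobulin, Tg, were at 1.29 and 0.532 in BrafYAP replicates 1 and 2 and at 12.0 to 196 in the other 4 libraries. The epithelial list summed to 7071 to 21952. Of the 10 myeloid markers all were above 1 in every library, and without Lyz2, which alone reached 3007 to 38889, the list summed to 4914, 4347 and 2306 in the YAP libraries and to the lower values of 1917, 1524 and 528 in the BrafYAP libraries. The other lists overlapped between the genotypes, with sums of 14.2 to 30.9 for T cell, 1.78 to 7.46 for B cell (Pax5 was at 0 throughout), 2.24 to 37.0 for endothelial and 126.9 to 275 for fibroblast markers. The part of these cells in the values below was not tested. Braf was at 0.977 to 2.20 TPM by exonic length, a level that does not show its mutation. Yap1 was at 7.02 to 8.89 in the YAP libraries and at 13.2, 14.4 and 2.53 in BrafYAP replicates 1, 2 and 6, and whether the transgene's reads are counted there is not given in the sources used here.

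Transcripts of Dusp1, Dusp4, Dusp5 and Dusp6 were higher in every BrafYAP library than in every YAP library, with ratios of mean TPM of 3.55, 30.7, 1.69 and 4.42, and those of Dusp8 were lower. The groups overlapped for the other 5 members, Dusp2, Dusp7, Dusp9, Dusp10 and Dusp16. No member passed an adjusted p of 0.05 in limma, against 18 of the 7319 genes tested on TPM (0.246%) and 0 of the 16834 tested on scaled reads (0.0%), and voom on the estimated reads called 0 of 16883 genes. At an unadjusted p under 0.05 there were 4 members, namely Dusp1, Dusp4 and Dusp6 with higher and Dusp8 with lower values, where 19.9% of all genes did the same on TPM and 20.2% on scaled reads. Without overlap between the groups there were 5 members, 4 with higher and 1 with lower values, where 28.2% of all genes did not overlap on TPM (11.8% higher and 16.4% lower) and 28.7% did not on scaled reads (11.6% higher and 17.1% lower). The median log2 fold change of the 10 members on scaled reads was 0.54, and that of all genes was -0.12. In bulk samples, fewer cells of a type and less RNA per cell cannot be told apart.

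**Figure D1:**
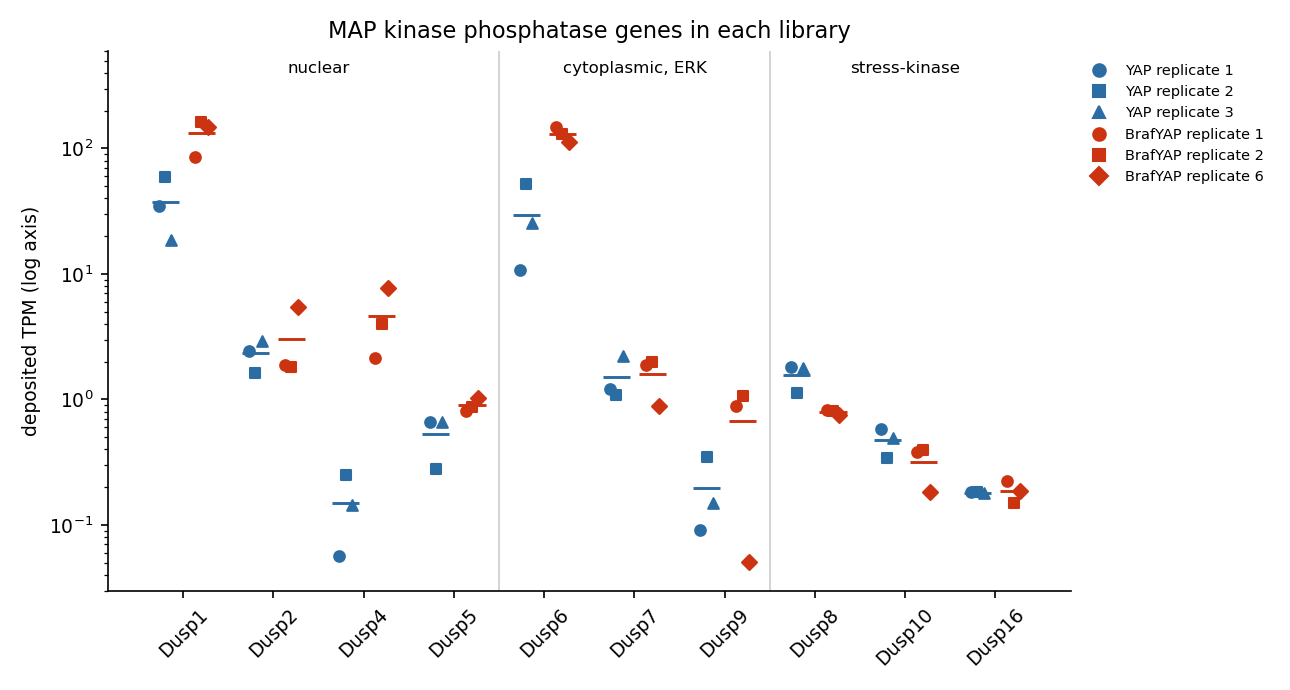
Deposited TPM (log axis) of the 10 MAP kinase phosphatase genes in each of 3 YAP (blue) and 3 BrafYAP (red) libraries, arranged by class. Points are libraries and short bars are group means. The blue and red points are separate for Dusp1, Dusp4, Dusp5, Dusp6 and Dusp8. TPM of different genes are not compared here, since the deposited values were divided by the genomic span.

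Of the nuclear class, Dusp4 showed the widest separation. Dusp4 (chr8:34807297-34819894, plus strand) encodes a nuclear phosphatase of ERK and JNK. Its estimated reads were 21, 78 and 53 in YAP replicates 1, 2 and 3, and 729, 1924 and 3322 in BrafYAP replicates 1, 2 and 6. Few reads were thus found in each YAP library and many more in each BrafYAP library, with BrafYAP replicate 6 the highest. The YAP libraries averaged 0.151 ± 0.0974 deposited TPM (SD, n = 3). The BrafYAP libraries averaged 4.63 ± 2.88 deposited TPM (SD, n = 3), 30.7 times as much. On log2(TPM + 1) the log2 fold change was 2.17 (SE 0.37, limma adjusted p = 0.0667), a scale that understates the change of a gene with such low values. On log2(scaled reads + 1) it was 4.95 (SE 0.67, adjusted p = 0.0568), with a 95% interval of 3.39 to 6.52. The limma adjusted p was 0.0393 when TPM were recomputed with the exonic length, where 0.42% of all genes passed. On log2(TPM + 1) it was 0.0422 without YAP replicate 2, a fit in which 465 of 7276 genes passed. With each other library left out it was 0.0581 to 0.225.

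Dusp1 (chr17:26505590-26562128, minus strand) encodes the founding member of the family, an immediate-early nuclear phosphatase of p38, JNK and ERK. It was at 34.6, 58.9 and 18.6 TPM in YAP replicates 1, 2 and 3 and at 85.2, 163 and 149 TPM in BrafYAP replicates 1, 2 and 6. Every BrafYAP library was above every YAP library, although the YAP libraries themselves spanned a wide range. The ratio of means was 3.55 and the log2 fold change 1.89 (SE 0.47, limma unadjusted p = 0.00503, adjusted p = 0.103). The limma adjusted p was 0.0394 without YAP replicate 2, a fit in which 465 of 7276 genes passed. With each other library left out it was 0.177 to 0.282. The annotated span of Dusp1 also covers Ergic1 and other genes, and without strand in the reads these cannot be told apart where exons overlap. Ergic1 itself was at 34.4, 46.6 and 51.8 TPM by exonic length in the YAP libraries and at 73.7, 103.9 and 50.4 in the BrafYAP libraries, which overlapped. The length by which the Dusp1 value was divided could not be settled, so that no reads or level per length are given for it. Its fold change on scaled reads, 1.92, rests on the annotated span and differs little from that on TPM, since the length is the same in every library and enters only through the pseudocount.

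Dusp5 (chr19:53529109-53542431, plus strand), whose product acts on ERK in the nucleus, had 258, 91 and 256 estimated reads in the YAP libraries and 293, 443 and 461 in the BrafYAP libraries. The groups did not overlap, but the nearest pair lay close together, at 0.661 TPM in YAP replicate 1 and 0.809 TPM in BrafYAP replicate 1. The log2 fold change on scaled reads was 0.85 (SE 0.42, limma adjusted p = 0.303) with an interval of -0.14 to 1.84, and it was 0.44 without YAP replicate 2, the lowest library. Dusp2 (chr2:127336159-127338376, plus strand), an inducible nuclear phosphatase best known from lymphoid and myeloid cells, was at 2.43, 1.63 and 2.91 TPM in YAP and at 1.87, 1.82 and 5.47 TPM in BrafYAP. Only BrafYAP replicate 6 exceeded the YAP range. The log2 fold change of Dusp2 was 0.19 (interval -0.68 to 1.06) and turned to -0.20 without that library.

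In the cytoplasmic class, the groups were separate for Dusp6 and overlapped for Dusp7 and Dusp9. Dusp6 (chr10:99263231-99267489, plus strand), whose product binds and inactivates ERK and which is transcribed in response to ERK, was at 10.7, 52.2 and 25.3 TPM in YAP replicates 1, 2 and 3. It was at 148, 130.1 and 112 TPM in BrafYAP replicates 1, 2 and 6. The 3 BrafYAP libraries lay close together and all were more than 2 times the highest YAP library, whereas the YAP libraries were spread widely. The means were 29.4 ± 21.1 (SD, n = 3) and 129.9 ± 17.9 TPM (SD, n = 3), a ratio of 4.42. The log2 fold change was 2.36 (SE 0.53, limma unadjusted p = 0.00302, adjusted p = 0.0940), with an interval of 1.10 to 3.62. With YAP replicate 2 left out it was 2.89, and with YAP replicate 1 left out it was 1.80. The limma adjusted p was 0.0361 without YAP replicate 2, a fit in which 465 of 7276 genes passed. With each other library left out the adjusted p was 0.141 to 0.263.

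Dusp7 (chr9:106368632-106375724, plus strand), a broadly expressed ERK phosphatase, was at 1.22, 1.08 and 2.22 TPM in YAP and at 1.88, 1.99 and 0.885 TPM in BrafYAP. The groups were interleaved, and the log2 fold change of 0.04 (interval -0.60 to 0.68) changed sign when single libraries were left out (-0.08 to 0.26). Dusp9 (chrX:73639419-73643514, plus strand) had 11, 35 and 18 estimated reads in YAP and 99, 169 and 7 in BrafYAP. BrafYAP replicates 1 and 2 were thus above all YAP libraries while BrafYAP replicate 6 was the lowest of all 6. For Dusp9 the log2 fold change was 1.11 (SE 1.17, adjusted p = 0.615 in limma) with all libraries and 2.47 without BrafYAP replicate 6. Dusp6 exceeded Dusp7, per exonic length, by 5.63, 31.2 and 7.34 times in the YAP libraries and by 50.5, 42.1 and 81.3 times in the BrafYAP libraries.

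The stress-kinase class held the member with lower values. Dusp8 (chr7:142079490-142095843, minus strand), which encodes a JNK and p38 phosphatase, was at 1.80, 1.13 and 1.77 TPM in YAP and at 0.818, 0.804 and 0.759 TPM in BrafYAP. Each BrafYAP library was below each YAP library, and the 3 BrafYAP values were nearly the same. The mean in YAP was 1.98 times that in BrafYAP, and the log2 fold change was -0.51 on log2(TPM + 1) (SE 0.18, limma unadjusted p = 0.0269, adjusted p = 0.187) and -0.95 on scaled reads. The myeloid sum without Lyz2 was also lower in every BrafYAP library. Within YAP, Dusp8 was lowest in YAP replicate 2 and this sum was lowest in YAP replicate 3. The part of myeloid cells in the Dusp8 values was not tested. The unadjusted p of Dusp8 stayed under 0.05 in 11 of 16 settings and was above it in 5, among them the fits without BrafYAP replicate 1, BrafYAP replicate 2, YAP replicate 1 or YAP replicate 3, with log2 fold changes of -0.64 to -0.44 over the libraries left out. Dusp10 (chr1:184013302-184075636, plus strand), of the same substrate preference, had 1061, 527 and 895 estimated reads in YAP and 646, 945 and 386 in BrafYAP, a log2 fold change of -0.61 with an interval of -1.56 to 0.34. Without BrafYAP replicate 6, its lowest library, the value for Dusp10 was -0.25. Dusp16 (chr6:134715468-134792625, minus strand), a JNK phosphatase that shuttles between nucleus and cytoplasm, was the most even member. It had 414, 347 and 402 estimated reads in YAP and 472, 442 and 492 in BrafYAP, and once scaled for depth its log2 fold change was 0.03 (interval -0.66 to 0.71).

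**Figure D2:**
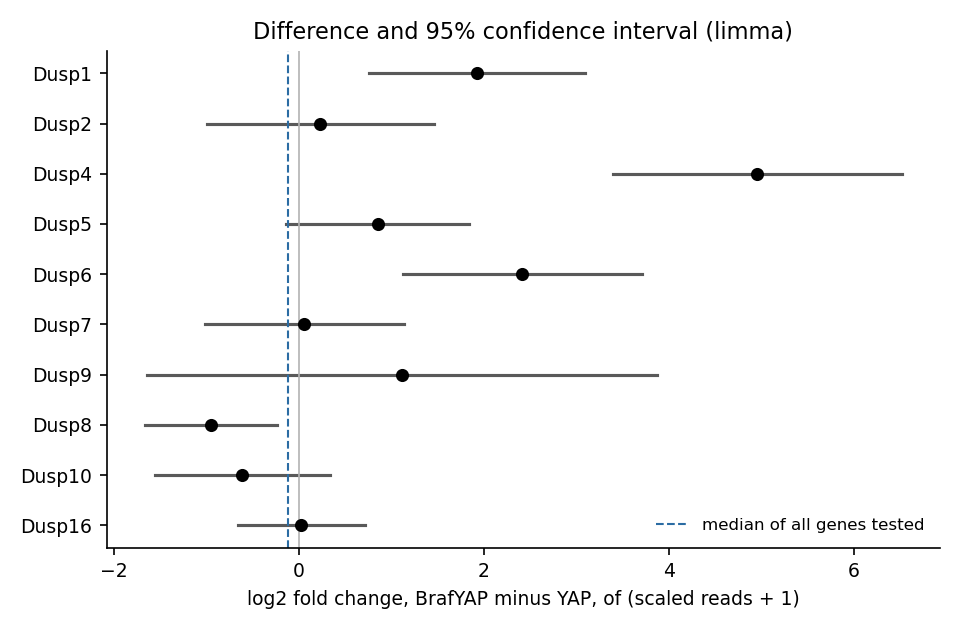
Log2 fold change (BrafYAP minus YAP) of each member on log2(scaled reads + 1), with 95% confidence intervals from limma over 3 and 3 libraries. The dashed line is the median of all 16834 genes tested, -0.12. The intervals of Dusp1, Dusp4 and Dusp6 lie above 0 and that of Dusp8 lies below it, while the interval of Dusp9 is the widest. The scaled reads of Dusp1 rest on its annotated span.

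Compared per exonic length, which excludes Dusp1, Dusp6 was the most abundant member in both genotypes, at 103 ± 70.6 TPM by exonic length (SD, n = 3) in the YAP libraries and 477 ± 67.2 (SD, n = 3) in the BrafYAP libraries. In YAP it was followed by Dusp10 at 25.3 and Dusp8 at 13.8, and Dusp10 was separate from both of its neighbours. Dusp7, Dusp5, Dusp2 and Dusp16 came next, at 8.40, 7.54, 6.77 and 4.68, and neighbours from Dusp8 down to Dusp16 overlapped. Dusp4 at 1.79 and Dusp9 at 0.761 stood at the end of the order and overlapped each other. In BrafYAP, Dusp4 held second place at 57.3 ± 35.1 (SD, n = 3), below all Dusp6 values and above all Dusp10 values. Dusp10 at 17.7, Dusp5 at 13.1, Dusp2 at 9.10, Dusp7 at 9.08 and Dusp8 at 7.20 followed, with overlap between each and the next. Dusp16 at 5.00 was separate from Dusp8 and overlapped Dusp9 at 2.75.

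Dusp6 made up 33.4, 78.1 and 53.3% of the summed level of these 9 members in YAP replicates 1, 2 and 3 and 85.4, 80.4 and 72.6% in BrafYAP replicates 1, 2 and 6, ranges that overlapped. The share of Dusp4 was 0.600 to 1.27% in YAP and 4.16 to 17.1% in BrafYAP. Within BrafYAP the order of the libraries was opposite for the 2 genes, since replicate 6 had the lowest Dusp6 and the highest Dusp4. With Dusp6 removed, the other 8 members summed to 75.1, 49.8 and 82.3 in the YAP libraries and to 92.2, 118 and 153 in the BrafYAP libraries. Dusp4 is among these 8, at 0.677, 2.90 and 1.81 in the YAP libraries and at 26.3, 50.3 and 95.4 in the BrafYAP libraries. The sum therefore does not show that the members other than Dusp4 and Dusp6 were higher together.

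**Figure D3:**
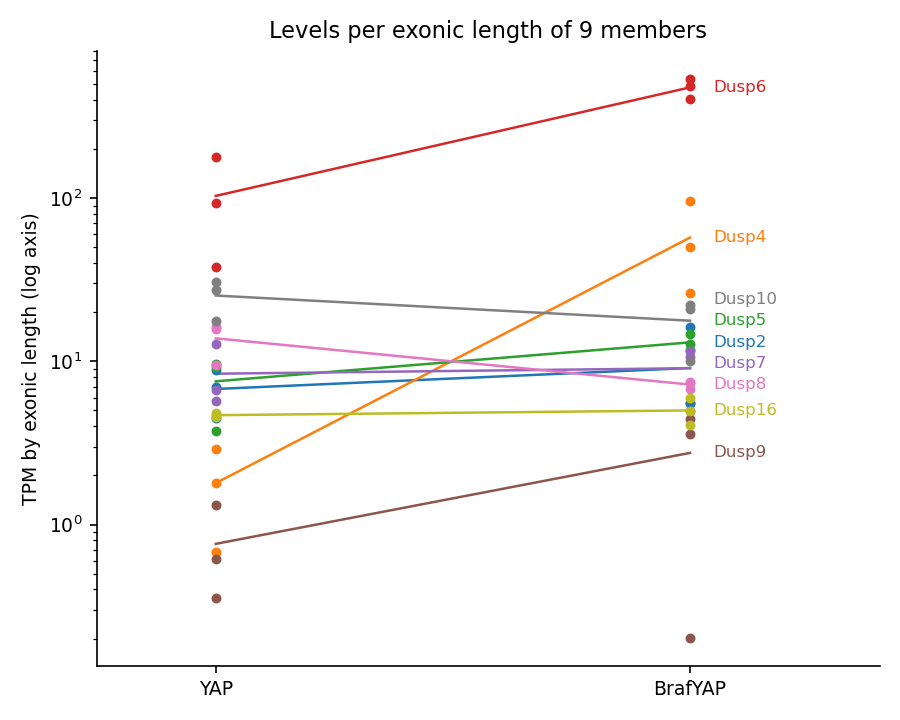
Level per exonic length (TPM by exonic length, log axis) of 9 members in YAP and BrafYAP. Points are libraries and lines join the group means. Dusp6 is at the top in both groups, and Dusp4 moves from 1.79 to 57.3, from eighth to second place.

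The other genes of the MAP kinase pathways were read from lists of known components. No gene of these lists passed an adjusted p of 0.05 in limma, so that the counts that follow use an unadjusted p under 0.05, which 10.7% of all genes reached with higher and 9.17% with lower values on TPM. Of the ERK targets and feedback genes outside the DUSP family, 13 of 20 were tested and 5 were higher, 0 lower. Ccnd1, which encodes cyclin D1, was at 10.1, 37.9 and 33.7 TPM in YAP and at 101.0, 71.1 and 53.9 TPM in BrafYAP, with a log2 fold change of 1.58. Etv4, an ETS transcription factor gene, had a log2 fold change of 1.38 on log2(TPM + 1) and 2.45 on scaled reads. Its values did not overlap between the groups. As for Dusp4, log2(TPM + 1) understates the change of list genes with low TPM. The median of the 13 genes was 0.95, against -0.06 for all genes.

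Among immediate-early genes, which a stimulus induces within minutes and to which Dusp1 is usually counted, 17 of 18 were tested and 6 were higher, 0 lower, with a median of 0.37. Ier2 was at 6.46, 174 and 36.3 TPM in YAP and at 225, 289.6 and 363 TPM in BrafYAP, and the AP-1 subunit gene Junb at 8.74, 409 and 66.7 TPM in YAP and at 463, 440.0 and 614 TPM in BrafYAP. Their log2 fold changes were 2.98 and 2.95. Both genes varied by over 20 times within the YAP group, more than Dusp1 did, and were highest there in YAP replicate 2, as Dusp1, Dusp4 and Dusp6 were. The tissue was digested with collagenase before sorting, and its part in these transcripts was not tested.

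Of the RAS-RAF-MEK-ERK core genes, 9 of 16 were tested on TPM and 5 were higher, 0 lower. The small GTPase gene Rras had a log2 fold change of 1.48 and Map2k2, which encodes MEK2, had one of 1.06. On scaled reads these were 1.61 and 2.14. Of the JNK and p38 core genes, 6 of 16 were tested, and the 2 with higher values were Mapk13 and Mapk12, which encode p38 isoforms, at 1.02 and 0.89. Their log2 fold changes on scaled reads were 1.21 and 1.44. Mapk12 did not overlap between the groups and Mapk13 did.

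The atypical dual-specificity phosphatases lack the kinase-binding domain of the MAP kinase phosphatases, and 7 of 16 were tested (Dusp21 was not analysed here). Of these, 1 was higher and 0 lower, with a median of -0.43. The single gene was Dusp28, at 0.539, 1.92 and 0.705 TPM in YAP and at 7.25, 18.0 and 23.0 TPM in BrafYAP, which is 2.98 on the log2 scale (SE 0.45, adjusted p = 0.0511 in limma). On scaled reads the log2 fold change was 3.96. Like Dusp4, Dusp28 was low in each YAP library and lowest of the BrafYAP libraries in replicate 1. Of 10 other phosphatases that act on MAP kinases, 2 were tested. Ptpn7, a tyrosine phosphatase of hematopoietic cells, was the 1 with lower values, at 1.77, 4.70 and 1.63 TPM in YAP and at 1.33, 0.995 and 0.395 TPM in BrafYAP, a log2 fold change of -0.89. The leukocyte marker Ptprc was lower in BrafYAP as well. It was at 11.9, 11.0 and 8.28 TPM by exonic length in YAP and at 2.98, 2.04 and 4.22 in BrafYAP. Within BrafYAP, the library with the highest Ptprc had the lowest Ptpn7. The part of leukocytes in the Ptpn7 values was not tested.

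**Figure D4:**
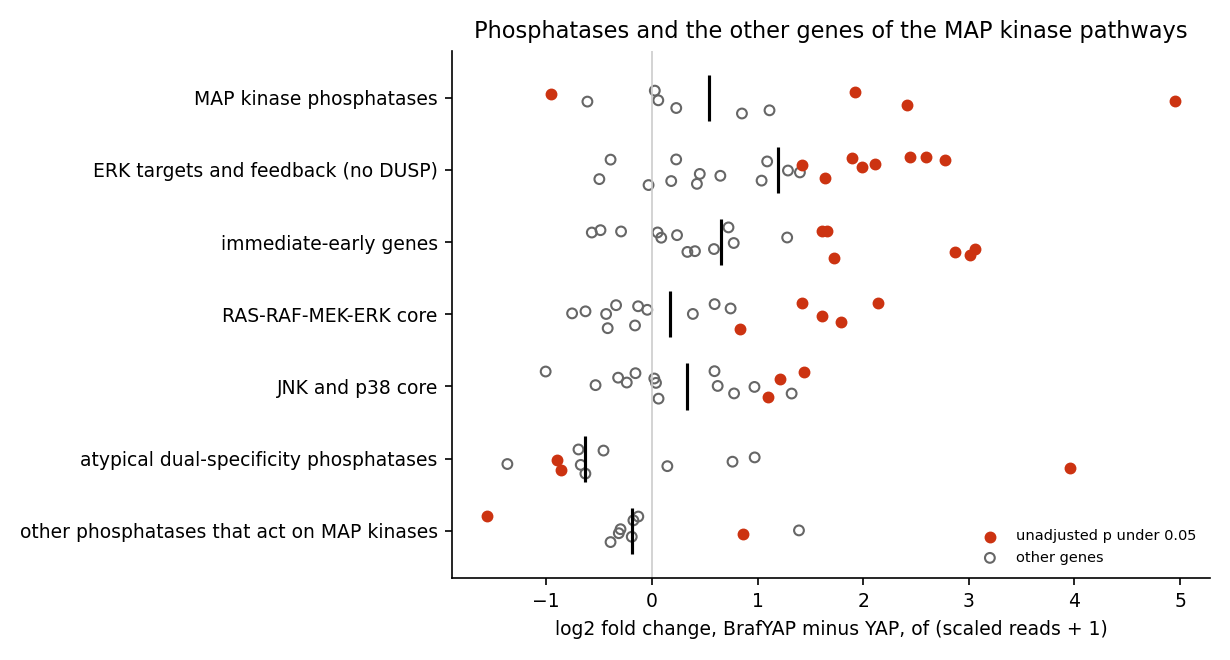
Log2 fold change (BrafYAP minus YAP) on log2(scaled reads + 1) of the 10 members and of 6 lists of other MAP kinase pathway genes. Each point is a gene, filled red where the unadjusted p was under 0.05, and black bars are medians. On this scale more genes of low TPM were tested, and 8 of 20 ERK target and feedback genes, 6 of 18 immediate-early genes and 5 of 16 RAS-RAF-MEK-ERK core genes were higher with none lower, where 9.68% of all genes were higher.

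Single libraries moved the sizes of the members that separated the genotypes. Their direction could not change, since groups without overlap keep their order when any library is left out. With each library left out in turn, the log2 fold change ranged from 1.48 to 2.28 for Dusp1, from 1.78 to 2.53 for Dusp4 and from 1.80 to 2.89 for Dusp6, and the unadjusted p of each of these stayed under 0.05 in every setting tried. Over the libraries left out, 5 or 6 members did not overlap between the groups and 3 to 5 had an unadjusted p under 0.05. In these fits on TPM, from 1028 of 7310 to 1891 of 7276 genes had an unadjusted p under 0.05 in limma. The share of all genes without overlap was not computed with a library left out. Leaving a library out cannot bring the member count below 5, so these counts are not read as a result about the members. Among the 6 such fits, Dusp1, Dusp4 and Dusp6 passed the adjusted threshold only when YAP replicate 2 was left out. In that fit 465 of 7276 genes passed, against 18 of 7319 with all 6 libraries. With all 6 libraries and array weights these 3 members passed too, as did 1393 of 7319 genes. Dusp4 also passed with the exonic length or quantile normalization.

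**Figure D5:**
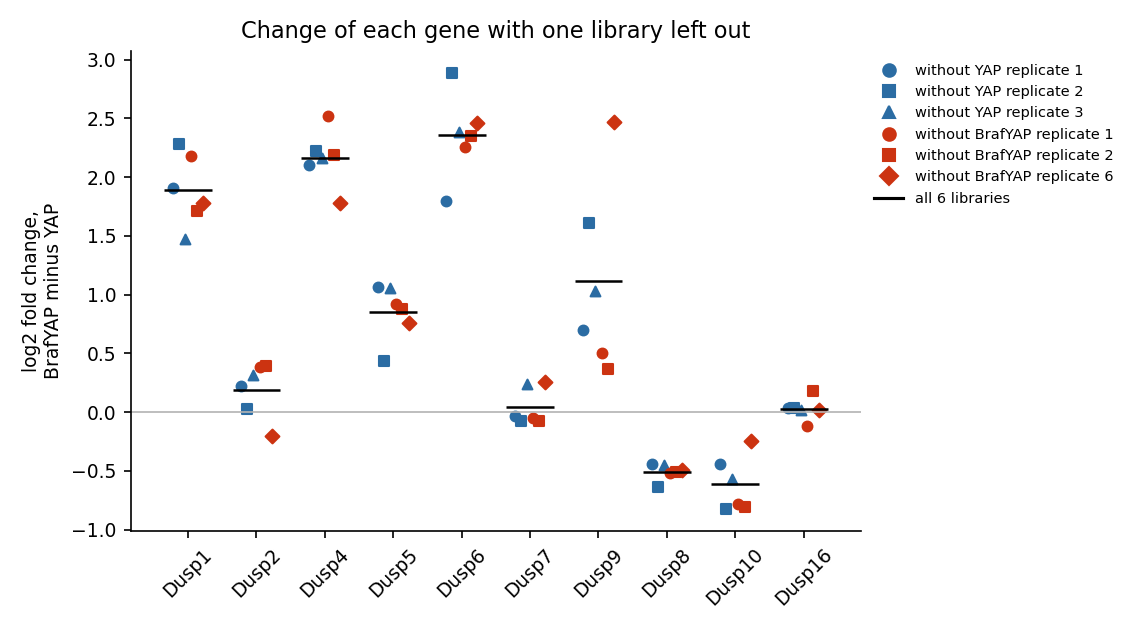
Log2 fold change (BrafYAP minus YAP) of each member when the library named by the symbol is left out, with black bars for all 6 libraries. Dusp1, Dusp2, Dusp4, Dusp6, Dusp7 and Dusp8 are on log2(TPM + 1) and the other 4 on log2(scaled reads + 1). Dusp1, Dusp4, Dusp5, Dusp6 and Dusp9 stay above 0 and Dusp8 and Dusp10 below it, while Dusp2, Dusp7 and Dusp16 cross 0. For Dusp1, Dusp4, Dusp5, Dusp6 and Dusp8, whose groups did not overlap, the sign could not change.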

How the data were processed

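RNA of about 20000 sorted cells per library was amplified for 12 cycles by SMART-Seq v4, libraries received 8 further PCR cycles, and paired reads of 50 bases were sequenced. Per the submitters' processing notes and the file header, bcl2fastq 2.2, STAR 2.6.1d on mm10 and the Partek quantifier with Ensembl release 95 were used by the authors, who deposited TPM plus an offset of 0.0001 for 35027 genes. Each deposited column, offset included, summed to 181217.6. The offset stayed in the TPM that were tested and was subtracted before reads were estimated. With the genomic span of GENCODE M21 as length, 71.5 to 75.74% of values under 200 reads fell within 0.05 of a whole read, against 22.07 to 24.43% with the exonic length, so that TPM had been divided by the span. Undoing this division gave estimated reads (whole for 8 of 10 members in all libraries) and, at 1 common depth, scaled reads. TPM by exonic length were recomputed from these for levels between genes.

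Genotypes were compared with limma 3.58.1 in R 4.3.3 (linear model, empirical Bayes with trend, two-sided, Benjamini-Hochberg adjustment over all genes tested, threshold 0.05). The 6 members with a mean TPM of at least 1 were tested on log2(TPM + 1) over 7319 genes, and the 4 others on log2(scaled reads + 1) over 16834 genes with a mean of at least 10. An exact permutation test of 3 against 3 cannot go below p = 0.1 and was not used. The study's methods describe replicates as tumors of separate mice, whereas the labels name pooled tumors for YAP and do not name mice. Scripts were tested on simulated data. Members, classes and gene lists were chosen with earlier results of these data known. All 10 members were named, and from each list the 2 genes with the largest positive and the 2 with the largest negative log2 fold change among those with an unadjusted p under 0.05. Python 3.11.15 with pandas 2.3.3 was used for summaries. Alternatives were other pseudocounts, filters, scalings, weights, lengths, voom, a replicate block and leaving out each library.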

Additional observations from a re-analysis of the deposited data

How the results depend on the processing

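The number of genes called genome-wide depended on the setting, at 18 in the reported analysis, 62 with TPM recomputed by exonic length, 79 with quantile normalization, 1393 with array weights, 3 with a minimum mean TPM of 10, 1 when the pseudocount was 0.1, 1 after median-ratio rescaling, 1 without the variance trend and 0 with scaled reads, voom, no filter or the replicate block. The unadjusted counts behind the zeros were 3404, 3419, 3891 and 987. With single libraries left out it ranged from 0 to 465, the highest without YAP replicate 2. Of 162 member values recomputed, 143 kept their direction and their side of the adjusted threshold, 9 passed it (Dusp1, Dusp4 and Dusp6 without YAP replicate 2, these and Dusp8 with array weights, and Dusp4 with exonic length or quantile normalization) and 10 changed sign. The latter were Dusp2 with array weights (-0.29) or the replicate block (-0.077), Dusp7 with array weights (-0.031), Dusp16 with quantile normalization (-0.046), and values with libraries left out, over which Dusp2 ranged from -0.20 to 0.40, Dusp7 from -0.079 to 0.26 and Dusp16 from -0.11 to 0.18. The cause was not tested. Median-ratio rescaling moved the median of all genes from -0.06 to 0.04 on TPM and from -0.12 to 0.01 on scaled reads. The replicate numbers 1 and 2 occur in both groups, but same-numbered libraries did not deviate together (correlations of -0.0483 and 0.0619), so the numbers were not taken as pairs. With the replicate block, 4 members had an unadjusted p under 0.05 with higher and 0 with lower values (Dusp8 was at -0.43, unadjusted p = 0.120), and no call at the adjusted threshold changed for a member. Replicate 3 occurs only in YAP and replicate 6 only in BrafYAP. In that fit the difference therefore rests on replicates 1 and 2 of each group alone. At 3 libraries a group, the intervals of Dusp2, Dusp5, Dusp7, Dusp9, Dusp10 and Dusp16 include 0 and do not show that these genes were alike in both genotypes.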

Other observations

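A few atypical phosphatases, named after their values were seen, were lower in BrafYAP on scaled reads. Dusp22, whose product acts in the JNK pathway, was at 2158, 2126 and 2391 scaled reads in YAP and at 1578, 1440 and 814 in BrafYAP, which is -0.86 on the log2 scale (SE 0.33, adjusted p = 0.210 in limma). Dusp19 was at 379, 303 and 312 scaled reads in YAP and at 179, 157 and 195 in BrafYAP, which is -0.90 on that scale (SE 0.30, adjusted p = 0.169). For Dusp14 the log2 fold change was -0.69 (SE 0.33, adjusted p = 0.290), and its values did not overlap between the groups either. In contrast Dusp3, which encodes a small phosphatase able to act on ERK and JNK, overlapped, with 2586, 2793 and 3013 scaled reads in YAP and 2985, 2365 and 833 in BrafYAP. On scaled reads 10.5% of all genes were lower at an unadjusted p under 0.05, and 17.1% were lower without overlap.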
